A study of Mus musculus with 7 samples.

Results

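Gpr17, Neu4, Enpp6, Myrf, Nkx2-2, Tcf7l2, Sirt2, Lhfpl3 and C1ql1 are genes used to place a cell between an oligodendrocyte progenitor and a myelinating oligodendrocyte. The 9 genes were taken by name from the gene tables of 7 mouse single-cell libraries. Of the 9, 8 had a row among the 17784 genes analysed, and Lhfpl3 had none in the tables used here. Level and share of cells with a transcript are described below for each gene in each library, in order of lineage stage.

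Oligodendrocyte progenitors divide, then commit, pass through a short premyelinating stage and mature into myelin-forming cells. Lhfpl3, a tetraspan-type membrane protein gene, and C1ql1, a secreted C1q-like protein gene, are used as progenitor markers. The receptor Gpr17 and the sialidase Neu4 mark committed and premyelinating cells, the choline phosphodiesterase Enpp6 marks newly formed oligodendrocytes, and the deacetylase Sirt2 is abundant in myelinating cells. Nkx2-2, a homeodomain factor, Tcf7l2, a transcription factor that acts with beta-catenin, and Myrf, a membrane-bound factor that switches on myelin genes after cleavage, regulate the passage between these stages.

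The cells were of C57BL/6 mice. By their labels, embryonic fibroblasts were transduced with viruses carrying Olig2, Sox10 and Nkx6.2 (MEF-3F) or Olig2 and Sox10 (MEF-2F), and cultured cerebral pericytes received the same 3 factors (PC-3F) or 2 factors (PC-2F). The other libraries held primary oligodendrocyte progenitors from brain (pOPC) and the untransduced fibroblasts (MEF) and pericytes (PC). Converted cells and pOPC were grown in OPC medium, MEF in MEF medium and PC in pericyte medium, so medium and transduction cannot be told apart in a comparison with the donor. The sources used here state neither age nor sex, whether cells of several animals were pooled, nor the time from transduction to capture.

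The transduced genes were read first. Nkx6-2, the factor by which the 3F and 2F labels differ, had 1 UMI in MEF-3F, 1 in MEF-2F, 2 in PC-3F, 2 in PC-2F, 1 in pOPC and 0 in both donors, so the libraries labelled 3F had no more of it than those labelled 2F. Whether the 3′ tag of a viral copy would count to this row is not given in the sources used here, so the row does not check the label. Olig2 was 329 CPM (UMIs per 1000000 UMIs of the library) in MEF-3F, 64.9 in MEF-2F, 87.9 in PC-3F, 191 in PC-2F, 1653 in pOPC and 0 in both donors. Sox10 was 244 CPM in MEF-3F, 130 in MEF-2F, 215 in PC-3F, 250 in PC-2F, 590 in pOPC, 12.6 in MEF and 0 in PC.

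Each population was 1 library, so no comparison has a replicate check, no p-value is given, and every call below compares libraries, not conditions. The libraries kept 82 to 290 cells, 1124 of 1140 barcodes in all, with 231234 to 1294431 unique molecular identifiers (UMIs) each. Median UMIs per cell were 1866 in MEF-3F, 2411 in MEF-2F, 4131 in PC-3F, 6259 in PC-2F, 3961.5 in pOPC, 4714 in MEF and 3775 in PC. No barcode was shared between libraries, and no doublet caller was run. The summed level of 15 progenitor markers was 8518 to 9519 CPM in the converted libraries and 9681 CPM in pOPC, against 857 CPM in MEF and 220 CPM in PC, and Serpine2 alone gave 5523 to 7957 CPM of it in the converted libraries. The defining receptor gene Pdgfra had 107 CPM in MEF-3F, 17.3 in MEF-2F, 535 in PC-3F, 370 in PC-2F, 1370 in pOPC, 8.85 in MEF and 88.1 in PC. Pdgfrb, used for pericytes and also made by fibroblasts, had 343 CPM in PC and 212 CPM in MEF, and Cspg4 had 55.6 CPM in PC and 89.7 CPM in MEF, so neither gene alone marks the pericytes off. Of the 12 mesenchymal markers, 8 were at 0 in pOPC, where they summed to 9.46 CPM, while the converted libraries held 7824 to 15277 CPM, MEF 38735 and PC 5027. The 8 microglial markers summed to 0 to 4.32 CPM in the converted libraries, 3.15 in pOPC, 145 in MEF and 9.27 in PC, and the 6 endothelial markers with a row to 4.32 to 13.3 CPM in the converted libraries, 1.58 in pOPC, 120 in MEF and 268 in PC. The 10 neuron markers summed to 30.3 to 110 CPM in the converted libraries, 987 in pOPC, 147 in MEF and 50.2 in PC, and the 8 astrocyte markers to 562 to 1890 CPM, 676, 274 and 229 in the same order. Aldoc and S100b gave most of the astrocyte sum in MEF-3F (946 and 573 CPM) and PC-3F (485 and 1011 CPM). Gfap and Aqp4 were at 13.1 CPM or less in every library. The part of these other cell types' markers in the results below was not tested.

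Factors such as Olig2 and Sox10 can bind near a gene's start, so the promoter windows of Tcf7l2 and Sirt2, the members that were higher in each converted library than in its donor, and of Nkx2-2, which was lower in each converted library than in pOPC, are shown. They are RefSeq windows of 300 bases on GRCm38.p6, read along the gene's strand, at chr19:55741560-55741859 (plus strand) for Tcf7l2, chr7:28766502-28766801 (plus strand) for Sirt2 and chr2:147186353-147186652 (minus strand) for Nkx2-2. The Nkx2-2 window lies at a RefSeq start inside the longer gene span given for it below. The table holds a further Tcf7l2 window, at chr19:55895071-55895370, with 1 match, which is not shown. Capitals mark matches on either strand to ACAANG, a short Sox-type motif. Neither CAGCTG, an E-box of the kind bound by Olig2, nor TAATTA, a homeobox core, occurs in these 3 windows.
Tcf7l2: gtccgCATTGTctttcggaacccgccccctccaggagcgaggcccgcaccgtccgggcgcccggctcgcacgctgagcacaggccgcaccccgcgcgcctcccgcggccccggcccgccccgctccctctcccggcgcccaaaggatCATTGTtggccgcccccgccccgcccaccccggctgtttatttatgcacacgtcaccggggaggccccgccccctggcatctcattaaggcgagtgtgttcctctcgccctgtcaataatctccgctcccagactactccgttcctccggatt
Sirt2: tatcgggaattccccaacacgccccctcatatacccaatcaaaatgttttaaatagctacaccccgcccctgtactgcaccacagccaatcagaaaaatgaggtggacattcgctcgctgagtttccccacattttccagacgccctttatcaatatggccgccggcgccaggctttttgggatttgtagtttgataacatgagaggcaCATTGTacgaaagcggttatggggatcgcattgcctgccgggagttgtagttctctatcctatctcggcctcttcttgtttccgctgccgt
Nkx2-2: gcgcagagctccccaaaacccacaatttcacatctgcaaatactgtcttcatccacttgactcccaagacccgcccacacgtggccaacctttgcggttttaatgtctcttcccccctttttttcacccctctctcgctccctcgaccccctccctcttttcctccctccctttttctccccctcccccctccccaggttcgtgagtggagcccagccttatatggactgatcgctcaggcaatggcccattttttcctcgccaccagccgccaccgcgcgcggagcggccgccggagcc
Tcf7l2 has 2 matches to ACAANG, Sirt2 has 1 and Nkx2-2 has none. Over 32851 mouse promoters of this length 41.2% hold ACAANG, 16.3% hold CAGCTG and 5.29% hold TAATTA, so a match in 2 of these 3 windows describes the letters only. The promoter table held 6 of the 9 genes. In it the window of Lhfpl3 has 2 matches to CAGCTG, that of Enpp6 has 1 to ACAANG, and that of Neu4 has none of the 3 motifs.

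Levels are given in CPM of the library with exact 95% Poisson intervals, and they count 3′ ends, so they are compared between libraries for 1 gene and not between genes. Intervals cover counting error only. A ratio between libraries is called when it is 2-fold or more and its exact 95% interval excludes 1, among genes measured with 10 UMIs and 20 CPM in at least 1 of the pair. Against a library at 0 the interval alone decides the call, and the ratio is given as a bound with 3 UMIs put in place of 0, which can fall under 2-fold.

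C1ql1, the progenitor-stage gene on the minus strand of chromosome 11 (GRCm38, 102939264 to 102946688), was highest in MEF-3F. Its level was 91.5 CPM in MEF-3F, 17.3 in MEF-2F, 9.42 in PC-3F, 24.1 in PC-2F, 12.6 in pOPC, and 0 in MEF and in PC. The MEF-3F library stood above PC-2F, the next in order, by 3.79-fold (2.31 to 6.32), whereas the steps between PC-2F, MEF-2F, pOPC and PC-3F, taken in that order, were within counting error. PC-3F had 6 UMIs, under the measured minimum, against 0 in both donors. Its interval over MEF, the next in order and not its own donor, began at 1.46. Over MEF the ratio of MEF-3F was at least 24.1-fold, and over pOPC it was 7.26-fold (3.37 to 17.9). In MEF-3F the 42 UMIs lay in 26 of 161 cells, with at most 4 in a cell. PC-2F reached at least 10.4-fold over PC. With each cell with a UMI counted once the log2 ratio was still 5.66, but the level fell under the 20 CPM minimum and the call was lost. It was also lost against the first barcode block of PC, at a log2 ratio of 2.98. The ratio of PC-2F to pOPC, 1.91-fold (0.85 to 4.84), was not called. A non-coding gene on the other strand, Gm26668, overlaps C1ql1 and held 23 UMIs over all libraries. The labels do not say whether counting used strand.

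Nkx2-2 (chromosome 2, minus strand, 147177546 to 147194243) was the member with its highest level in pOPC. It had 6.54 CPM (3 UMIs) in MEF-3F, 0 in MEF-2F, 0 in PC-3F, 20.8 in PC-2F, 109 in pOPC, and 0 in both donors. All 4 converted libraries were called lower than pOPC. MEF-3F was 16.6-fold lower (5.46 to 82.7), PC-2F was 5.23-fold lower (3.27 to 8.63), MEF-2F was lower by a factor of at least 8.39, and the bound for PC-3F was 23.1. In PC-2F the 25 UMIs were in 21 of 179 cells, and this was the converted library with a call over its donor, at least 8.97-fold. That call, too, was lost with each such cell counted once, where the level fell under the 20 CPM minimum at a log2 ratio of 5.53. With the first block of PC it was lost at 2.77. The antisense gene Nkx2-2os, which overlaps it, had 2 UMIs, both in MEF-3F, and 6430503K07Rik, also antisense, had 3 in all.

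Gpr17 (chromosome 18, minus strand, 31942997 to 31949636), the receptor of committed progenitors, was present in 3 converted libraries at a level near that of pOPC. It had 135 CPM in MEF-3F, 17.3 in MEF-2F, 122 in PC-3F, 111 in PC-2F, 88.3 in pOPC, and 0 in MEF and in PC. MEF-3F, PC-3F, PC-2F and pOPC followed each other without a step beyond counting error. Over pOPC the ratios were 1.53-fold (1.05 to 2.24) in MEF-3F, 1.39-fold (0.97 to 1.99) in PC-3F and 1.25-fold (0.91 to 1.74) in PC-2F, none of them called. MEF-2F was lower than pOPC by 5.10-fold (1.89 to 19.4). Over their donors the ratios were at least 35.6-fold in MEF-3F, 52.8-fold in PC-3F and 47.7-fold in PC-2F. The 4 UMIs of MEF-2F lay in 4 cells, too few to be measured there against MEF.

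Within MEF-3F, Gpr17 was unevenly spread: 62 UMIs lay in 25 of 161 cells, 17 of those cells had 1 UMI, and 1 cell held 16. Counting each of these cells once gives 54.5 CPM. The barcodes of MEF-3F come in 2 blocks that the labels do not explain, and Gpr17 was 242 CPM (152 to 366) in the first block of 40 cells and 109 CPM (77.7 to 148) in the second block of 121 cells. Gpr17 overlaps Lims2, which runs on the opposite strand and is itself listed among committed-stage genes. Lims2 had 45.8 CPM in MEF-3F, 0 in MEF-2F, 86.3 in PC-3F, 103 in PC-2F, 20.5 in pOPC, 69.5 in MEF and 6.18 in PC. The fibroblast donor thus held 55 Lims2 UMIs and no Gpr17 UMI.

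Neu4 (chromosome 1, plus strand, 94020451 to 94028334), the sialidase gene, stayed under the measured minimum in all 7 libraries. It had 2 UMIs in MEF-3F, 0 in MEF-2F, 3 in PC-3F, 19 in PC-2F, 3 in pOPC, and 0 in MEF and in PC. PC-2F had the most, 15.8 CPM (9.52 to 24.7) from 10 of 179 cells, at least 6.82-fold over PC, but its interval against pOPC included 1 (0.98 to 17.6). At the depth of the other libraries no difference between them was detectable.

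Tcf7l2 (chromosome 19, plus strand, 55741820 to 55933654), the regulator that acts with beta-catenin, was detected in all 7 libraries and was higher in each converted library than in its donor. It had 224 CPM in MEF-3F, 333 in MEF-2F, 135 in PC-3F, 138 in PC-2F, 91.5 in pOPC, 72.0 in MEF and 30.1 in PC. The fibroblast-derived libraries stood highest, and MEF-2F was above MEF-3F by 1.48-fold (1.09 to 2.01), short of a call. MEF-3F exceeded MEF by 3.12-fold (2.23 to 4.39) and MEF-2F exceeded MEF by 4.62-fold (3.24 to 6.63). PC-3F exceeded PC by 4.48-fold (3.03 to 6.72) and PC-2F exceeded PC by 4.58-fold (3.22 to 6.68). Over pOPC the fibroblast-derived libraries were called, at 2.45-fold (1.76 to 3.45) for MEF-3F and 3.64-fold (2.56 to 5.21) for MEF-2F, and the pericyte-derived libraries were not, at 1.48-fold (1.05 to 2.10) for PC-3F and 1.51-fold (1.11 to 2.07) for PC-2F.

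Enpp6 (chromosome 8, plus strand, 46986887 to 47096762), the marker of newly formed oligodendrocytes, was at or under 3 UMIs in all libraries. Its counts were 0 in MEF-3F, MEF-2F and PC-3F, 1 in PC-2F, 0 in pOPC, 3 in MEF and 1 in PC. In the converted libraries 0 UMIs allow a level of up to 6.54 CPM in MEF-3F, 12.97 in MEF-2F and 4.71 in PC-3F. No library showed Enpp6 above the fibroblast donor.

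Myrf (chromosome 19, minus strand, 10208272 to 10240748), the factor that switches on myelin genes, separated the pericyte-derived libraries and MEF-3F from the rest. It had 32.7 CPM in MEF-3F, 0 in MEF-2F, 97.3 in PC-3F, 111 in PC-2F, 1.58 (1 UMI) in pOPC, 2.53 in MEF and 3.09 in PC. PC-3F and PC-2F did not differ beyond counting error, at 0.87-fold (0.64 to 1.19), and MEF-3F lay 2.98-fold below PC-3F (1.67 to 5.63). Below MEF-3F came a step of 10.6-fold (3.37 to 43.8) to PC, under which the remaining libraries could not be told apart. Over the donors, the ratio was 12.9-fold (3.01 to 117) in MEF-3F, 31.5-fold (11.7 to 119) in PC-3F and 36.1-fold (13.8 to 134) in PC-2F. Over pOPC it was 20.7-fold (3.19 to 873) in MEF-3F, 61.7-fold (10.7 to 2476) in PC-3F and 70.7-fold (12.5 to 2813) in PC-2F, against a single UMI in pOPC.

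The cells of PC-2F held up to 7 Myrf UMIs each, and 18 of 179 cells had 3 or more. In MEF-3F no cell had more than 2. With the first barcode block of MEF-3F alone, Myrf had 2 UMIs in 40 cells and was no longer measured.

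Sirt2 (chromosome 7, plus strand, 28766735 to 28788661), the deacetylase of myelinating cells, was detected everywhere and was higher in all 4 converted libraries than in their donors and in pOPC. Its level was 344 CPM in MEF-3F, 307 in MEF-2F, 314 in PC-3F, 332 in PC-2F, 137 in pOPC, 102 in MEF and 104 in PC. The 4 converted libraries did not differ from their neighbours in order beyond counting error, nor did pOPC, PC and MEF, and a step of 2.24-fold (1.61 to 3.10) lay between MEF-2F and pOPC. MEF-3F was 3.36-fold over MEF (2.56 to 4.45) and MEF-2F was 3.00-fold over MEF (2.15 to 4.18). PC-3F was 3.01-fold over PC (2.41 to 3.77) and PC-2F was 3.18-fold over PC (2.61 to 3.90).

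Over pOPC, Sirt2 was 2.51-fold in MEF-3F (1.92 to 3.30), 2.24-fold in MEF-2F (1.61 to 3.10), 2.29-fold in PC-3F (1.77 to 2.98) and 2.42-fold in PC-2F (1.91 to 3.09). The donor PC also comes in 2 barcode blocks, and its Sirt2 level was 174 CPM (116 to 252) in the first block of 39 cells and 94.4 CPM (77.4 to 114) in the second block of 251 cells. Against the first block the log2 ratio of PC-3F was 0.83 and that of PC-2F 0.91, both under the 2-fold limit. With each cell that had a UMI counted once, the log2 ratios of PC-3F and PC-2F were 0.98 and 0.59 over PC and 0.88 and 0.49 over pOPC, and these 4 calls were lost. With the first block of MEF-2F its log2 ratio to pOPC was 0.93, also short of a call. Nfkbib, which overlaps the start of Sirt2 on the other strand, had 8.65 to 45.7 CPM, highest in pOPC.

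**Figure D1:**
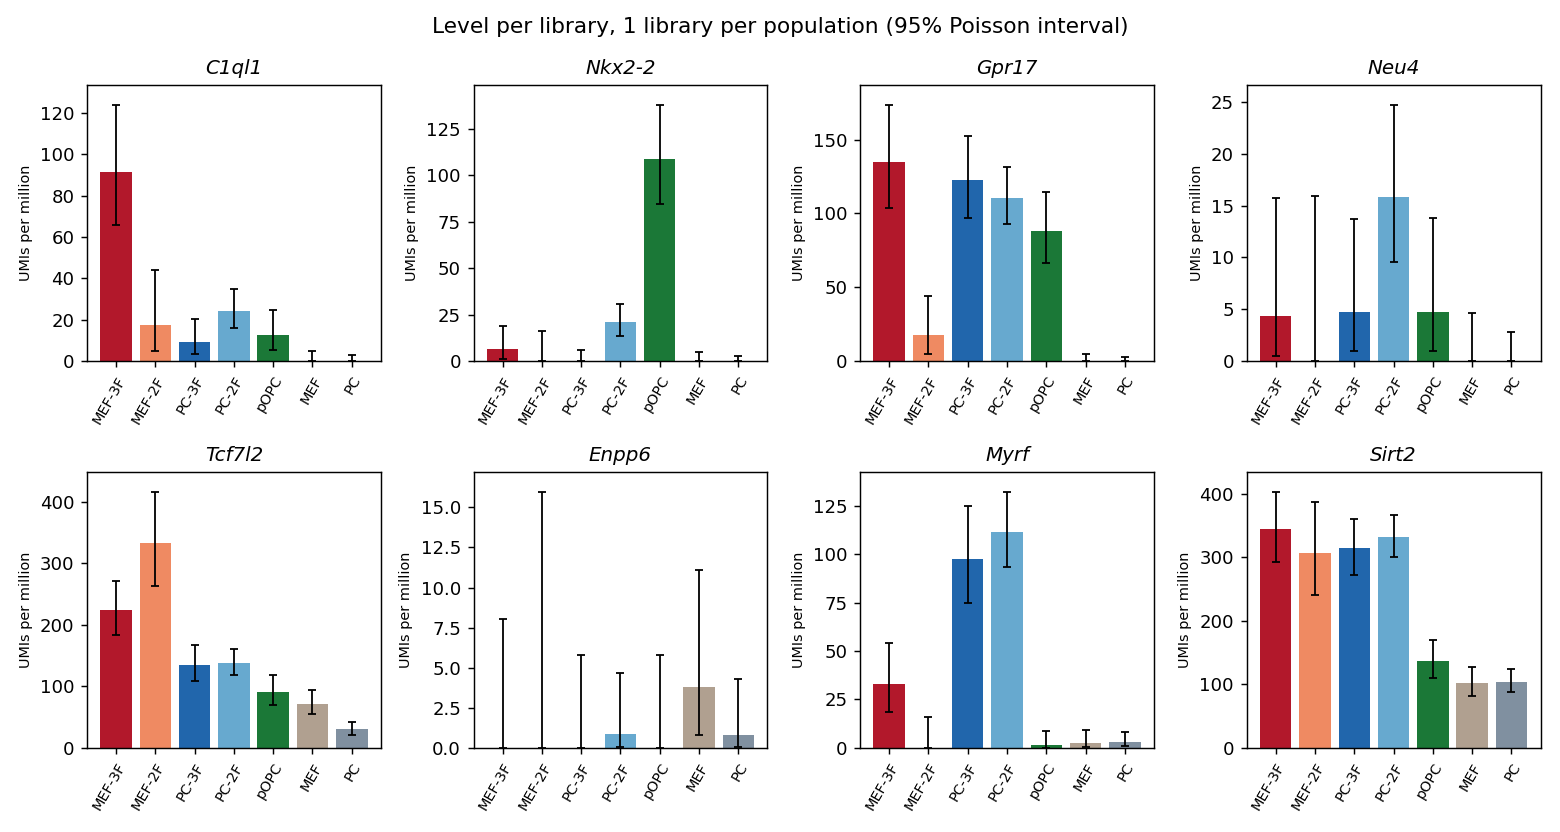
Level of each of the 8 genes in CPM (y axis, starting at 0) in the 7 libraries (x axis), 1 bar per library with its exact 95% Poisson interval. Sirt2 is at 307 to 344 in the converted libraries and 102 to 137 in the other libraries, Nkx2-2 peaks at 109 in pOPC, and Gpr17 is at 0 in MEF and PC.

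Set against their donors, the question being how far conversion moved each gene, the measured members were each called higher. In MEF-3F over MEF 5 of 5 measured members were called higher (C1ql1, Gpr17, Tcf7l2, Myrf and Sirt2), where 23.6% of 8546 measured genes were called higher and 12.7% lower. In MEF-2F over MEF both measured members, Tcf7l2 and Sirt2, were higher, with 18.9% of 7542 genes higher and 14.7% lower. In PC-3F over PC 4 of 4 were higher (Gpr17, Tcf7l2, Myrf and Sirt2), with 18.8% of 8397 genes higher and 15% lower. In PC-2F over PC 6 of 6 were higher, C1ql1 and Nkx2-2 being added, with 17.4% of 8277 genes higher and 13% lower.

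C1ql1, Nkx2-2, Gpr17 and Myrf had 4 UMIs or fewer in each donor, so they were measured there through the converted library alone and had to come out higher. Tcf7l2 and Sirt2 were not bound in this way. The median log2 ratio of the measured members was 3.42 in MEF-3F, 1.90 in MEF-2F, 3.49 in PC-3F and 5.39 in PC-2F, against 0.27, 0.05, 0.04 and 0.04 over all measured genes in the same order. With genes at 0 put at 3 UMIs the members' medians were 3.69, 1.90, 3.57 and 3.27. Scaling by a trimmed mean of log ratios would lower the log2 ratios over MEF by 0.28, those over PC by 0.06 in PC-3F and 0.03 in PC-2F, and it left these 4 counts as they were.

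Against pOPC, the comparison that asks how close the converted cells came to primary progenitors, the members split. In MEF-3F 4 of 6 measured members were higher (C1ql1, Tcf7l2, Myrf and Sirt2) and Nkx2-2 was lower, beside 20% of 8843 genes higher and 19.5% lower. In MEF-2F, of 4 measured, Tcf7l2 and Sirt2 were higher and Nkx2-2 and Gpr17 lower, beside 18.3% higher and 25.1% lower over 8191 genes. In PC-3F and in PC-2F Myrf and Sirt2 were higher and Nkx2-2 was lower, of 5 and 6 measured members. The background was 18.8% higher and 21.8% lower in PC-3F, and 19.7% higher and 21.3% lower in PC-2F. The members' median log2 ratios to pOPC were 1.31 in MEF-3F, -0.52 in MEF-2F, 0.56 in PC-3F and 0.73 in PC-2F, against -0.07, -0.32, -0.22 and -0.21 over all measured genes. C1ql1 and Myrf had 8 UMIs or fewer in pOPC and were measured through the converted library, while Nkx2-2 was measured in MEF-3F, MEF-2F and PC-3F through pOPC alone. Scaling by the trimmed mean would raise the log2 ratios to pOPC by 0.03 to 0.26, and in PC-2F it made 4 calls where 3 stood before. These 4 comparisons share the pOPC library.

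**Figure D2:**
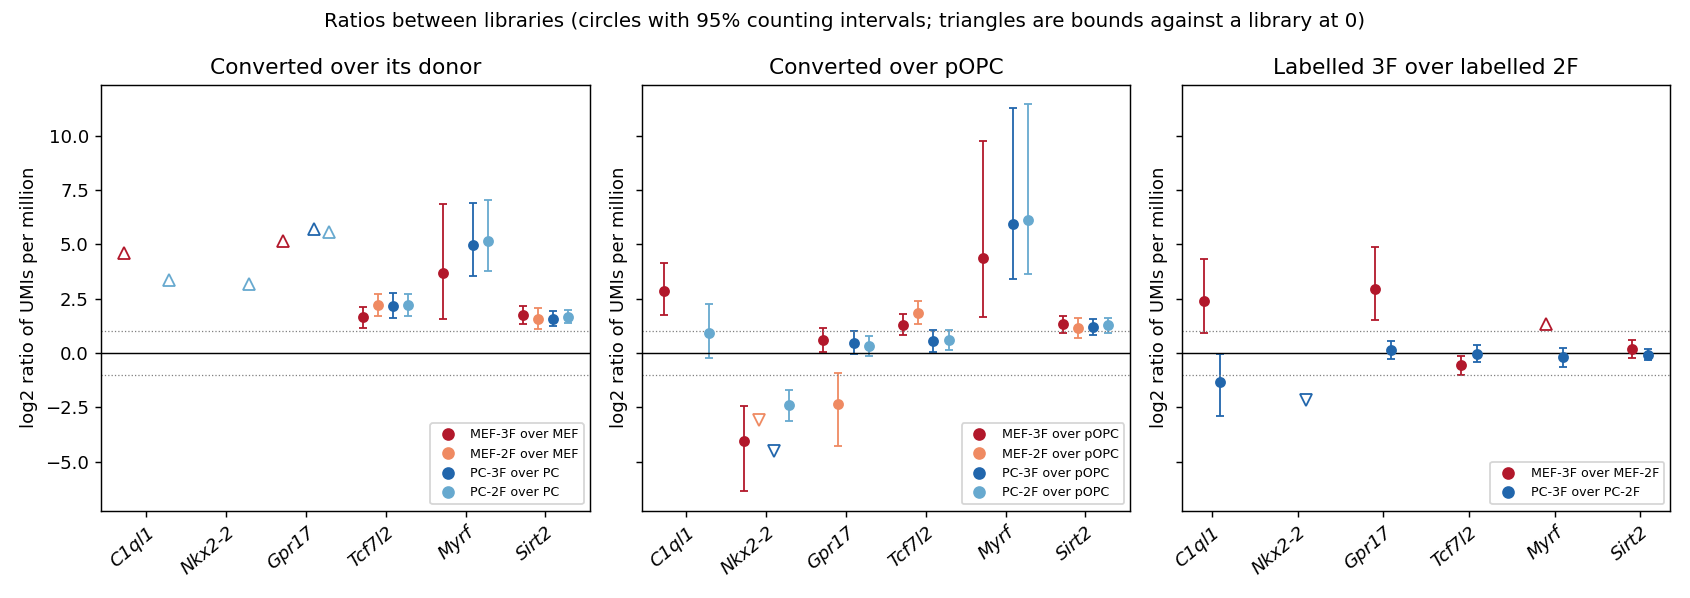
Log2 ratio of CPM (y axis) for the 6 genes measured in at least 1 comparison (x axis), for converted libraries over their donor, converted libraries over pOPC, and libraries labelled 3F over those labelled 2F. Circles carry exact 95% intervals, open triangles are bounds against a library at 0, and dotted lines mark 2-fold, with Sirt2 above 2-fold over donor and pOPC in all 4 libraries and Nkx2-2 below pOPC in all 4.

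Between the fibroblast-derived libraries labelled 3F and 2F, 3 members were called apart. Olig2, given to both, also differed there, by 5.07-fold (2.98 to 9.29), as did Sox10 by 1.88-fold (1.25 to 2.92), while Nkx6-2 had 1 UMI in each, and the part of these factors in the members' ratios was not tested. C1ql1 was 5.29-fold higher in MEF-3F than in MEF-2F (1.92 to 20.3), Gpr17 was 7.81-fold higher (2.90 to 29.6) and Myrf was higher by a bound of 2.52-fold, of 5 measured. With the second barcode blocks alone, the C1ql1 and Myrf calls were lost, at log2 ratios of 1.56 and 1.88, and the Myrf call was also lost with the first blocks and among cells with a Sox10 UMI, at 2.32. Over all genes 9.39% of 7788 were called higher and 6.91% lower, and the median log2 ratio was 2.25 for the measured members (1.33 with genes at 0 put at 3 UMIs) and 0.11 for all genes. MEF-2F was the shallowest library, with 231234 UMIs from 82 cells, so its 0 Myrf UMIs allow up to 12.97 CPM. In the pericyte-derived libraries no measured member was called higher in PC-3F than in PC-2F and 2 of 6 were lower. Olig2 was 2.17-fold lower in PC-3F (1.61 to 2.96), Sox10 was at 0.86-fold (0.70 to 1.05) and Nkx6-2 had 2 UMIs in each. C1ql1 was 2.56-fold lower (1.05 to 7.55), and Nkx2-2 was lower by a bound of 4.42-fold, where 5.11% of 8135 genes were called higher and 5.91% lower. The median log2 ratio was -0.13 for the measured members and -0.01 for all genes. The C1ql1 call was lost when each cell with a UMI was counted once, with a log2 ratio of -1.18, and among cells with a Sox10 UMI, at -0.88. The Nkx2-2 call was lost with each cell counted once, at -4.51. Counted in this way both genes fell under the 20 CPM minimum. Gpr17, Tcf7l2, Myrf and Sirt2 differed by 0.87-fold to 1.11-fold between PC-3F and PC-2F, with intervals that all include 1 and lie within 0.64 to 1.47.

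Between donors at the same factor label, MEF-3F and PC-3F were called apart in C1ql1, 9.72-fold higher in MEF-3F (4.11 to 28.0), and in Myrf, lower in MEF-3F. These were 2 of 5 measured members, where 15.6% of 8659 genes were called higher and 12.5% lower, and the median log2 ratio was 0.14 for the members and 0.05 for all genes. Gpr17 was at 1.10-fold (0.78 to 1.56) and Sirt2 at 1.10-fold (0.88 to 1.36). In MEF-2F against PC-2F, Tcf7l2 was 2.41-fold higher (1.82 to 3.18) and Gpr17 was 6.4-fold lower (2.44 to 23.8), of 6 measured. Myrf was lower by a bound of 8.59-fold. Nkx2-2 was called on its interval, up to 0.83, but its bound was 1.6-fold, under the 2-fold limit. Here 12% of 7889 genes were called higher and 15.2% lower, and the median log2 ratio was -1.42 for the members (-0.58 with genes at 0 put at 3 UMIs) and -0.13 for all genes. The Nkx2-2 call rested on 25 UMIs against 0 and was lost with either block of MEF-2F alone, with each cell counted once and among cells with a Sox10 UMI, where Tcf7l2 at a log2 ratio of 0.85 was not called either.

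Primary progenitors set the scale for these ratios. In pOPC over MEF, Gpr17 was at least 23.3-fold and Nkx2-2 at least 28.7-fold higher, whereas Tcf7l2 at 1.27-fold (0.87 to 1.86) and Sirt2 at 1.34-fold (0.98 to 1.84) were not called. Of 8797 genes 32.3% were called higher and 19.5% lower, and the median log2 ratio was 3.78 for the 4 measured members (2.48 with genes at 0 put at 3 UMIs) and 0.41 for all genes. In pOPC over PC, Gpr17 was at least 38.1-fold, Nkx2-2 at least 46.9-fold and Tcf7l2 3.04-fold higher (1.99 to 4.68), and Sirt2 at 1.32-fold (0.99 to 1.74) was not called. Of 8754 genes 27.7% were called higher and 20.6% lower, and the medians were 4.72 (3.43 with genes at 0 put at 3 UMIs) and 0.28. Gpr17 and Nkx2-2 were measured here through pOPC alone. Scaling by the trimmed mean would lower these log2 ratios by 0.40 over MEF and 0.34 over PC.

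Shares of cells with a UMI were compared after each cell was thinned to 1000 UMIs, which left out 39 cells of MEF-3F, 7 of MEF-2F, 1 of PC-3F, 1 of PC-2F, 18 of pOPC, 2 of MEF and 23 of PC. Sirt2 was found in 29.5% of MEF-3F cells, 30.7% of MEF-2F, 30.8% of PC-3F, 24.7% of PC-2F, 13.8% of pOPC, 12.4% of MEF and 8.61% of PC. Before thinning the shares were 47.2%, 47.6%, 63.3%, 74.9%, 37.3%, 35.9% and 33.1% in the same order. The higher unthinned share of PC-2F goes with its median depth of 6259 UMIs.

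Tcf7l2 was found in 18.9% of thinned MEF-3F cells, 38.7% of MEF-2F, 12.3% of PC-3F, 13.5% of PC-2F, 8.62% of pOPC, 4.65% of MEF and 2.25% of PC, and unthinned in 39.8%, 54.9%, 42.9%, 54.7%, 31.3%, 30.5% and 11.7%. The interval of MEF-2F, 27.6% to 50.6%, lay above those of the other 6 libraries at 1000 UMIs. At 2000 UMIs per cell it was 32.1% to 61.9% and overlapped that of MEF-3F, 27.6% to 51.1%. Both genes had a UMI in donor cells, so their presence in a cell does not by itself set converted cells apart.

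Gpr17 was found in 11.5% of thinned MEF-3F cells, 0 of 75 MEF-2F cells, 13.7% of PC-3F, 10.7% of PC-2F and 8.62% of pOPC, and in 0 of 129 MEF and 0 of 267 PC cells. Unthinned it was in 15.5%, 4.88%, 35.4%, 36.3% and 25.4% of the same 5 populations and in 0 of 131 MEF and 0 of 290 PC cells, which allows up to 2.29% and 1.03% of cells with a UMI at a limit of 3 cells. At 2000 UMIs Gpr17 was found in 20.9% of PC-3F cells (14.4% to 28.8%) and 6.59% of pOPC cells (2.46% to 13.8%), intervals that do not overlap there and do at 1000 UMIs. Each thinning was 1 random draw, and the pOPC share was lower at 2000 UMIs than at 1000. Before thinning, 50 of these 134 PC-3F cells and 29 of these 91 pOPC cells had a Gpr17 UMI, so the gap at 2000 UMIs is not read as a difference. Myrf was found in 4.10% of thinned MEF-3F cells, 9.59% of PC-3F and 11.2% of PC-2F, and in no thinned cell of MEF-2F, pOPC, MEF or PC. Unthinned, Myrf was in 8.07% of MEF-3F, 30.6% of PC-3F and 35.8% of PC-2F cells, against 0.75% of pOPC, 1.53% of MEF and 0.69% of PC cells, the donor shares giving the background.

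Nkx2-2 was found in 8.62% of thinned pOPC cells, 3.37% of PC-2F and 1.64% of MEF-3F cells, and in 34.3%, 11.7% and 1.86% before thinning. C1ql1 was found in 7.38% of thinned MEF-3F cells, 4% of MEF-2F, 2.25% of PC-2F and 2.59% of pOPC cells, and in none of 146 PC-3F cells. Unthinned it was in 16.1% of MEF-3F, 4.88% of MEF-2F, 3.40% of PC-3F, 12.8% of PC-2F and 5.97% of pOPC cells. At 2000 UMIs the C1ql1 intervals of MEF-3F, 4% to 19.0%, and PC-3F, 0.18% to 5.29%, overlapped. Neu4 was found in 3.37% of thinned PC-2F cells and in at most 1 cell of any other library.

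**Figure D3:**
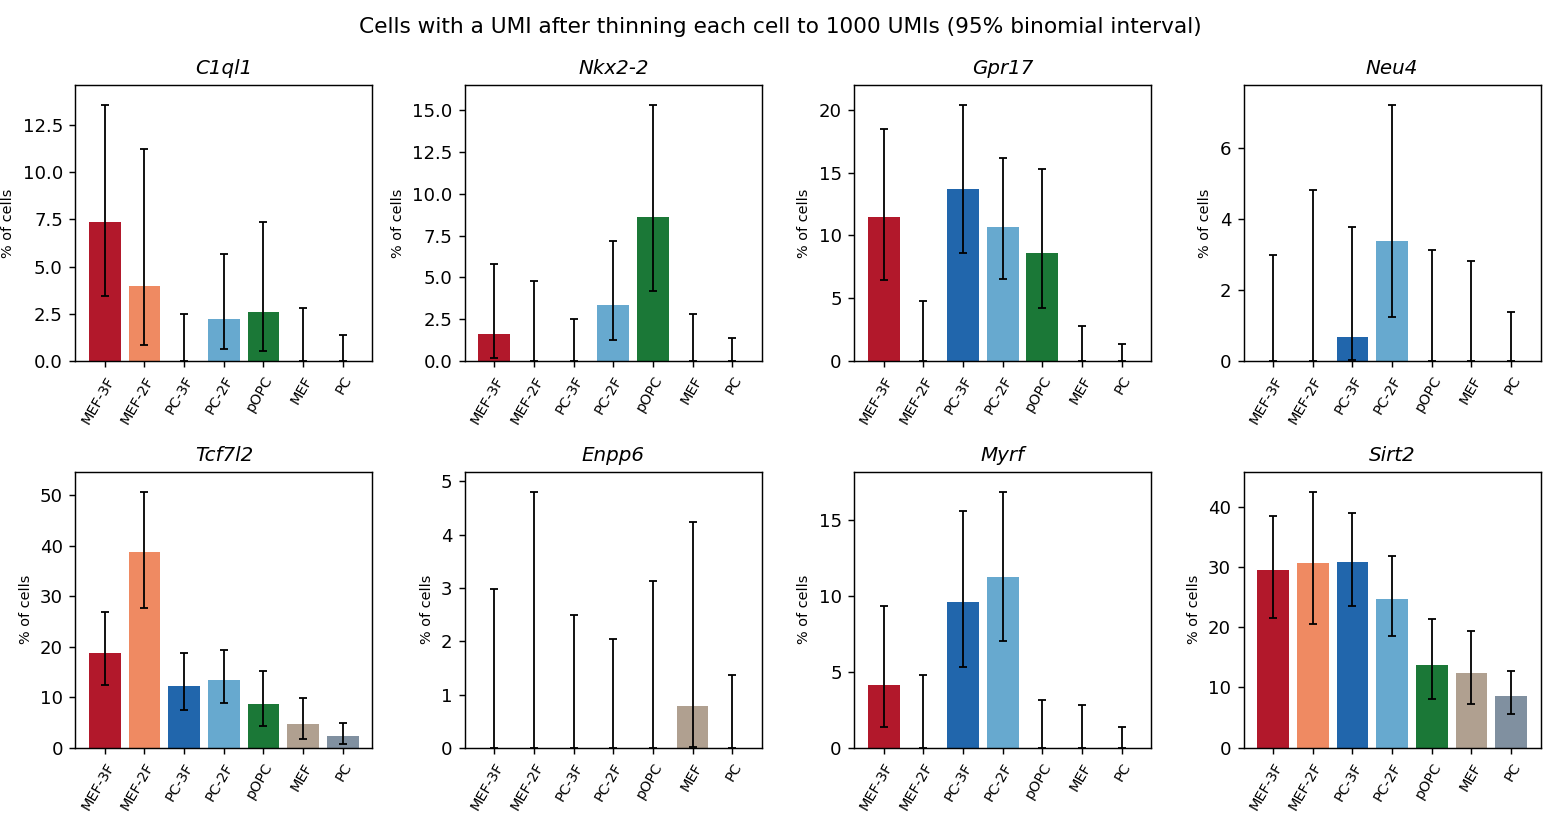
Percent of cells with at least 1 UMI of each of the 8 genes (y axis) in the 7 libraries (x axis), after each cell was thinned to 1000 UMIs, with exact 95% binomial intervals. Sirt2 lies at 24.7% to 30.8% in the converted libraries and 8.61% to 13.8% in the others, and Myrf is at 0 outside MEF-3F, PC-3F and PC-2F.

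Counted over the 8 genes, thinned cells of the converted libraries carried more members than those of pOPC and the donors. Tcf7l2 and Sirt2, which donor cells also held, made up most of these detections. In MEF-2F Tcf7l2 was in 29 and Sirt2 in 23 of 75 thinned cells, C1ql1 was in 3, and no other member was found. No member had a UMI in 45.9% of MEF-3F cells, 41.3% of MEF-2F, 47.3% of PC-3F and 52.8% of PC-2F, compared with 64.7% of pOPC, 82.9% of MEF and 89.1% of PC cells. Cells with 3 members occurred in MEF-3F (3 of 122), PC-3F (3 of 146) and PC-2F (9 of 178) and in no other library, and no thinned cell had 4. Without thinning, Gpr17 and Myrf shared 6 cells in MEF-3F (of 25 with Gpr17 and 13 with Myrf), 22 in PC-3F (of 52 and 45) and 38 in PC-2F (of 65 and 64). In pOPC 34 cells had Gpr17 and 1 had Myrf, and none had both, but 1 Myrf cell is too few to judge overlap there. Thinned cells with both genes numbered 3 in MEF-3F (of 14 and 5) and 2 in PC-3F (of 20 and 14). In PC-2F they numbered 3 (of 19 and 20). Deeper cells can show both genes more often, and whether any overlap exceeded that of independent detection was not tested.

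**Figure D4:**
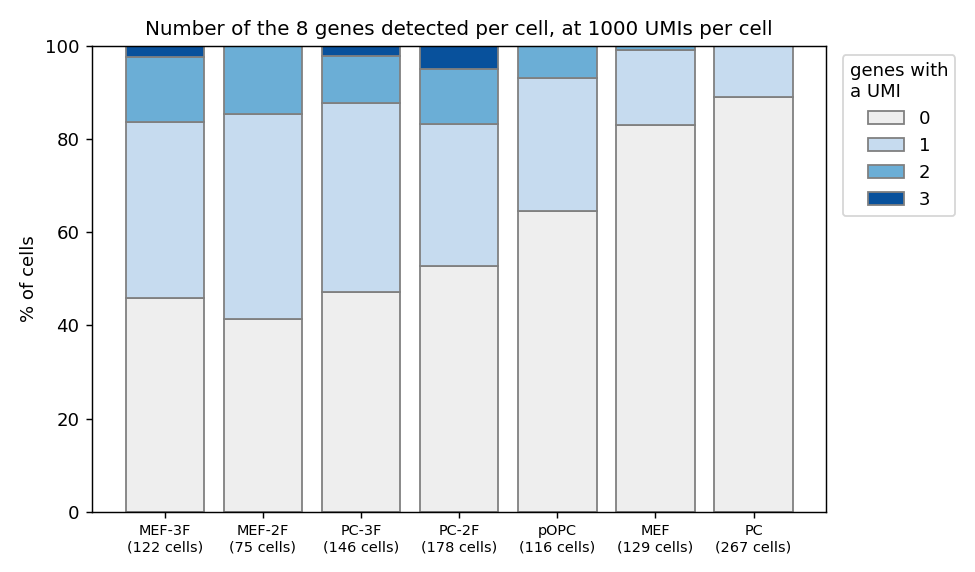
Percent of cells (y axis) by the number of the 8 genes with a UMI, in each library (x axis) after thinning to 1000 UMIs per cell. Cells with none of the genes make up 41.3% to 52.8% of the converted libraries, 64.7% of pOPC, 82.9% of MEF and 89.1% of PC.

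Levels were also summed apart over cells with and without a UMI of Sox10, a transduced factor. Transcripts of the viral copy and of the cell's own gene cannot be told apart in these tables. Myrf was 165 CPM in the 100 PC-2F cells with Sox10 and 29.4 CPM in the 79 without, 5.62-fold (3.22 to 10.6). It was 147 CPM in the 65 PC-3F cells with Sox10 and 53.4 CPM in the 82 without, 2.74-fold (1.55 to 5.04). In MEF-3F it was 46.5 CPM with Sox10 and 20.5 CPM without, and the interval of 0.71 to 8.45 included 1.

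Gpr17 was 237 CPM in the 50 MEF-3F cells with Sox10 and 45.1 CPM in the 111 without, 5.25-fold (2.70 to 11.2), and 138 against 69.3 CPM in PC-2F, 1.99-fold (1.33 to 3.04). The MEF-3F levels came from 51 and 11 UMIs, so the 1 cell with 16 Gpr17 UMIs was among those with Sox10. These intervals treat the UMIs of a cell as independent. In PC-3F Gpr17 was 140 against 107 CPM and in pOPC 88.9 against 81.2 CPM, both within counting error. Sirt2 was 409 CPM with Sox10 and 214 without in PC-2F, 1.91-fold (1.52 to 2.41), and 336 against 294 CPM in PC-3F, within counting error. All 19 Neu4 UMIs of PC-2F and 21 of its 25 Nkx2-2 UMIs were in cells with Sox10. Tcf7l2 was higher with Sox10 in MEF-3F, at 284 against 172 CPM, and not apart in PC-2F, at 146 against 126 CPM, or PC-3F, at 130 against 139 CPM.

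Cells with a Sox10 UMI were deeper, with medians of 3110 against 1458 UMIs in MEF-3F, 4243 against 3685 in PC-3F and 6675 against 5764 in PC-2F, so depth moved with the split. Among cells with 2000 UMIs or more, a limit set after these depths were seen, the ratio for Myrf was 6.39-fold in PC-2F and 2.61-fold in PC-3F, and for Gpr17 7.54-fold in MEF-3F and 2.02-fold in PC-2F, all with intervals above 1. In MEF-2F the 14 cells with Sox10 held no Gpr17 or Myrf UMI, and Sirt2 was 430 CPM in them and 272 CPM in the 68 without, within counting error. The 9 Schwann markers with a row summed to 5743 CPM in MEF-2F, and to 2225 in MEF-3F, 2825 in PC-3F, 2053 in PC-2F and 998 in pOPC. Their part in the Tcf7l2 and Sirt2 levels of MEF-2F was not tested.

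**Figure D5:**
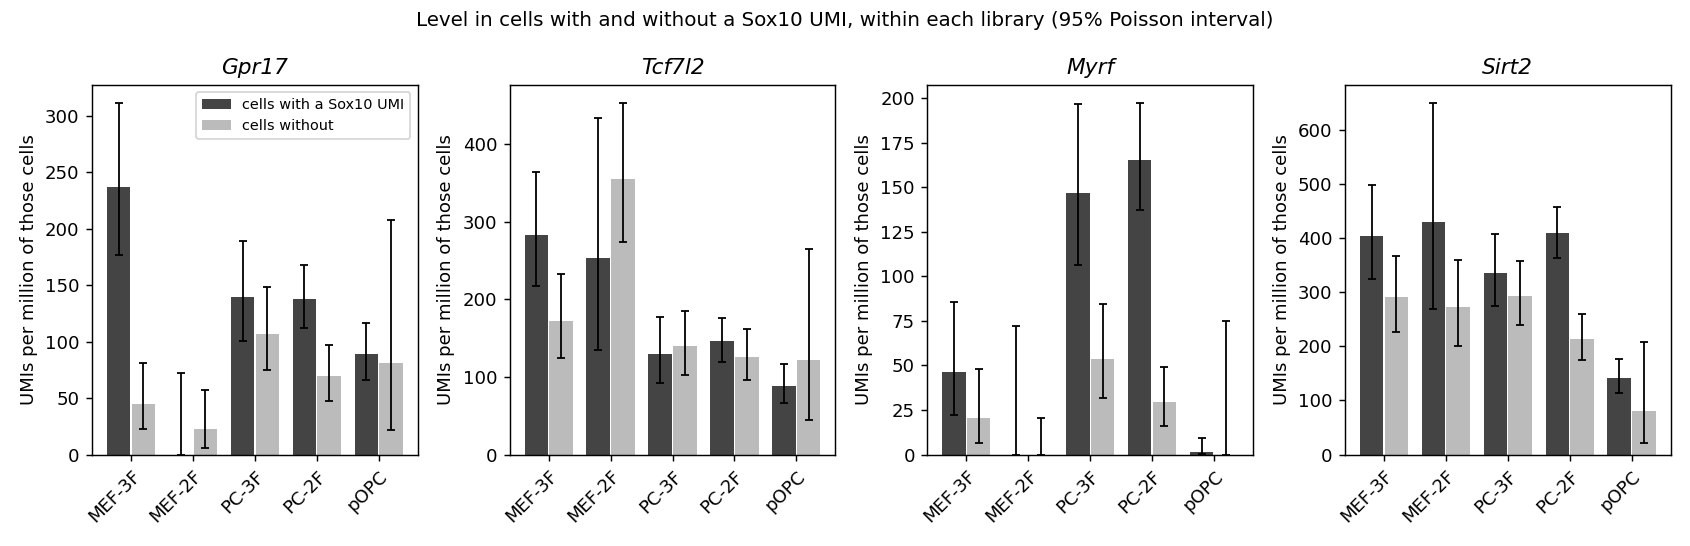
Level of Gpr17, Tcf7l2, Myrf and Sirt2 in CPM of the cells concerned (y axis, starting at 0) in cells with a Sox10 UMI (dark) and without (light) of each library (x axis), with exact 95% Poisson intervals. Myrf in PC-2F is at 165 with Sox10 and 29.4 without, and Gpr17 in MEF-3F is at 237 and 45.1.

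Split instead by a Gpr17 UMI, PC-2F cells with it also had higher levels of later-stage members. There Myrf was 179 CPM in the 65 cells with Gpr17 and 61.0 CPM in the 114 without, 2.93-fold (2.02 to 4.33). Neu4 was 5.02-fold higher with Gpr17 (1.6 to 20.8), Sirt2 1.80-fold (1.47 to 2.21), Tcf7l2 1.63-fold (1.18 to 2.24) and Olig2 3.24-fold (2.42 to 4.37). The 17 myelin and mature-stage genes with a row, summed, were lower with Gpr17, at 8724 against 9666 CPM in PC-2F and 8779 against 11007 CPM in PC-3F. In MEF-3F no other member was apart between the 25 cells with Gpr17 and the 136 without. In PC-3F Myrf was 137 CPM with Gpr17 and 72.0 CPM without, 1.90-fold (1.12 to 3.26), while Sirt2 at 318 and 311 CPM was not apart. In pOPC none of the other 7 members was apart between the 34 cells with Gpr17 and the 100 without, Sirt2 being 130 and 142 CPM.

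Cell cycle genes differed between the pericyte-derived libraries in this split. Their summed level was 3223 CPM with Gpr17 and 1828 CPM without in PC-3F, and 2641 CPM with and 3032 CPM without in PC-2F. Median depths were 4247 and 3805 UMIs in PC-3F, and 7109 and 5482 UMIs in PC-2F. Among cells with 2000 UMIs or more the Myrf ratio was 2.94-fold in PC-2F (2.01 to 4.35) and 1.85-fold in PC-3F (1.09 to 3.17).

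Other committed and newly formed oligodendrocyte genes, from a list of 20 that holds none of the members and has 17 with a row, had more calls higher than lower over the donors. So did all measured genes, at the shares given above, and list genes at 0 in the donor, 5 in MEF and 4 in PC, could be called in 1 direction only. In MEF-3F over MEF 6 of 13 measured were higher and 2 lower, in MEF-2F 6 and 3 of 12, in PC-3F over PC 8 and 1 of 12, and in PC-2F 7 and 1 of 12, with median log2 ratios of 1.10, 1.14, 1.72 and 1.83. Over pOPC 5 of 14 were higher and 3 lower in MEF-3F, 3 and 5 of 13 in MEF-2F, 8 and 4 of 14 in PC-3F, and 9 and 4 of 14 in PC-2F. Beside these counts, 18.3% to 20% of all measured genes were called higher than in pOPC and 19.5% to 25.1% lower. Bcas1, a gene of early myelinating oligodendrocytes, was at 0 in both donors and higher by bounds of 9.77-fold in MEF-3F, 12.5-fold in MEF-2F, 14.9-fold in PC-3F and 17.9-fold in PC-2F. Its level was 34.5 to 47.6 CPM in the converted libraries and 356 CPM in pOPC. The tetraspanin Cd9 had 1059 CPM in MEF-3F, 917 in MEF-2F, 2147 in PC-3F and 1491 in PC-2F, against 235 in pOPC, 185 in MEF and 264 in PC. Bmp4 was at 0 UMIs in all 4 converted libraries and in pOPC and at 155 CPM in MEF. The Notch ligand Dll3 was 132 CPM in pOPC and 8.72 CPM or less in each converted library.

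Factors that promote differentiation had more calls lower than higher against pOPC, as did all measured genes in MEF-2F, PC-3F and PC-2F. Over all measured genes 18.3% to 20% were called higher and 19.5% to 25.1% lower, with median log2 ratios of -0.32 to -0.07. Of a list of 24, 0 of 19 measured were higher and 8 lower in MEF-3F over pOPC, 2 and 12 of 19 in MEF-2F, 1 and 11 of 20 in PC-3F, and 1 and 12 of 20 in PC-2F, with medians of -0.64, -1.51, -1.08 and -1.19. The list includes 2 of the transduced factors, Olig2 and Sox10. Olig1, which was not transduced, had 687 CPM in MEF-3F, 30.3 in MEF-2F, 159 in PC-3F and 362 in PC-2F, against 2761 in pOPC and 0 in both donors. Over their donors 8 of 17 were higher and 1 lower in MEF-3F, 7 and 0 of 15 in MEF-2F, and 7 and 2 of 17 in both pericyte-derived libraries. Of all measured genes 17.4% to 23.6% were higher and 12.7% to 15% lower over the donors. The retinoid receptor gene Rxrg was at 54.9 CPM in PC-3F and 55.7 in PC-2F, 8.65 in MEF-2F (2 UMIs), and 0 in MEF-3F, pOPC, MEF and PC.

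Genes that hold progenitors back from differentiation, a list of 15, were higher than in pOPC for 8 of 13 measured in MEF-3F, with 4 lower, with 3 and 3 of 9 in MEF-2F, 4 and 4 of 10 in PC-3F and 4 and 4 of 11 in PC-2F. The median log2 ratios were 1.85, -0.27, 0.68 and -0.21. All measured genes were called 18.3% to 20% higher and 19.5% to 25.1% lower against pOPC, with medians of -0.32 to -0.07. The all-gene shares over the donors, given above, likewise stand beside the donor counts that follow. Over the donors 6 of 12 were higher and 1 lower in MEF-3F, 3 and 3 of 9 in MEF-2F, 5 and 2 of 8 in PC-3F, and 4 and 2 of 9 in PC-2F. Id1, an inhibitor of basic helix-loop-helix factors, had no UMI in pOPC and 181 CPM in MEF-3F, 130 in MEF-2F, 78.5 in PC-3F and 120 in PC-2F, compared with 356 in MEF and 281 in PC. Id3 was 1031 CPM in MEF-3F, 588 in MEF-2F, 195 in PC-3F and 409 in PC-2F, against 12.6 in pOPC, 1022 in MEF and 351 in PC. Hes1, a Notch target, was 401 CPM in MEF-3F, 497 in MEF-2F, 177 in PC-3F and 82.4 in PC-2F, against 11.04 in pOPC, 593 in MEF and 85.0 in PC. Others of the list went above the donor. Id2 was 719 CPM in MEF-3F, 666 in MEF-2F, 479 in PC-3F and 179 in PC-2F, against 342 in pOPC, 186 in MEF and 65.7 in PC. Sox6 was 118 CPM in MEF-3F, 60.5 in MEF-2F, 80.0 in PC-3F and 91.5 in PC-2F, against 289 in pOPC, 2.53 in MEF and 0 in PC.

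Myelin and mature-stage genes, a list of 20 with 17 rows, showed 9 of 12 measured higher and 2 lower in MEF-3F over pOPC, 9 and 1 of 11 in MEF-2F, 11 and 0 of 13 in PC-3F, and 10 and 0 of 13 in PC-2F, with median log2 ratios of 3.90, 2.83, 3.17 and 2.74. Of the 17 genes, 8 were at 0 in pOPC and 9 in each donor, so they could be measured through the converted library alone and had to come out higher, and the counts are to be read with that and with the all-gene shares above. Against their donors the counts were 9 higher and 1 lower of 12 in MEF-3F, 7 higher and 1 lower of 10 in MEF-2F, and 11 higher and 1 lower of 13 in both pericyte-derived libraries. Mag, a myelin protein gene, was 39.2 CPM in MEF-3F, 12.97 in MEF-2F, 40.8 in PC-3F and 52.4 in PC-2F, and 0 in pOPC, MEF and PC. Mog, a late myelin gene, was at 15.8 CPM in PC-2F and at 0 in the other 6 libraries.

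Tcf7l2 acts in Wnt signalling, and of 11 genes used as Wnt readouts 5 or fewer were measured in any comparison. In MEF-3F over MEF 2 of 5 were higher, in MEF-2F 3 of 4, and in PC-3F and PC-2F over PC none of 3 was called. All measured genes were called higher at 17.4% to 23.6% in these comparisons. Axin2, a feedback gene of the pathway, had 8.72 CPM in MEF-3F, 4.32 in MEF-2F, 6.28 in PC-3F, 11.6 in PC-2F, 9.46 in pOPC, 1.26 in MEF and 0 in PC. Tcf7l1, a paralog of Tcf7l2, had 65.4 CPM in MEF-3F, 112 in MEF-2F, 39.2 in PC-3F, 43.3 in PC-2F, 4.73 in pOPC, 46.8 in MEF and 44.8 in PC. Enpp2, a paralog of Enpp6 made by maturing oligodendrocytes, contrasted with it, at 41.4 CPM in MEF-3F, 34.6 in MEF-2F, 471 in PC-3F, 755 in PC-2F, 115 in pOPC, and 0 in MEF and in PC. Sirt1, another sirtuin gene, was 50.1 CPM in MEF-3F, 21.6 in MEF-2F, 36.1 in PC-3F, 28.3 in PC-2F, 28.4 in pOPC, 24.0 in MEF and 32.4 in PC.

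For each member with 50 or more UMIs in all, the genes with the most similar profile over the 7 libraries were found by Pearson's r of log2(CPM + 5) among 6771 genes that reached 50 CPM in 1 library. With so many candidates and 7 points that share medium, transduction and depth, high values arise readily, and r is given as a description. Ptgds, a prostaglandin synthase gene, and Col9a1 were nearest to Sirt2 (r = 0.996 and 0.994), and Ptgds had 177 to 214 CPM in the converted libraries against 12.6 in pOPC and 0 in both donors. Aldoc and Scrg1 were nearest to Gpr17 (0.99 and 0.97). Folr2 and Pmel were nearest to Myrf (0.98 each), Folr2 at 105 CPM in PC-3F and 101 in PC-2F and 0 in MEF-2F, pOPC, MEF and PC. Megf9 and Gstz1 were nearest to Tcf7l2 (0.99 each), Cmtm4 and Arid2 to Nkx2-2 (0.99 each), and Dennd5a and Tnks2 to C1ql1 (0.98 each).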

How the data were processed

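Expression was measured in 7 libraries of dissociated mouse cells, captured in ddSEQ droplets and prepared with a 3′ kit with UMIs, per the labels' protocols. Per the submitters' processing notes, the tools were STAR 2.5.3a, featureCounts 1.6.1 (Subread), UMI-tools 0.5.3 and bcl2fastq 2.19.1.403, with the mm10 build. The notes list no settings, so whether counting used strand is not given in the sources used here. The deposited gene-by-cell values are neither counts nor normalised levels. From the values, each is the place of a UMI count in the text-sorted list of counts that occur, built apart for each barcode block. No label states this. The codes were turned back into counts on that reading, with a fitted smooth model of how often each count occurs. Between 88.9% and 98.3% of a block's UMIs came from codes that this model placed at 1 count with near certainty. That is confidence under the model, and other counts were possible for codes above 1. A code above 0 always means a UMI, so unthinned presence in a cell does not depend on the decoding, whereas levels, the cell filter and thinned shares do. The largest count of a member in a cell was 16.

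Barcodes with 500 or more UMIs and at most 20% mitochondrial UMIs were kept, 1124 of 1140. Rows not present in a table were read as 0 UMIs. UMIs were summed per library and divided by its total (CPM). Genes were measured in a comparison with 10 UMIs and 20 CPM in at least 1 of its 2 libraries. A call needed a 2-fold ratio and an exact 95% conditional binomial interval without 1 (against 0 UMIs, the interval alone). Log2 ratios add 0.5 UMIs, and bounds put 3 UMIs in place of 0. Levels have exact Poisson intervals and shares exact Clopper-Pearson intervals, with cells thinned to 1000 UMIs (seed 11). With 1 library per population no test between conditions was run and no p-value computed. The procedure was tested on simulated data first. Python 3.11.15, numpy 2.4.6, scipy 1.17.1, pandas 2.3.3 and matplotlib 3.10.9 were used.

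The members and gene lists were chosen with earlier results of these data known. Of 208 list symbols, 3 were matched by an older symbol. Named genes were all members, for each member with 50 or more UMIs the 2 genes with the most similar profile, of each list the 3 measured genes with the largest absolute log2 ratio in a comparison, and Olig2, Sox10, Pdgfra, Cspg4 and Mbp for context. Some genes that this rule names are not reported here. Pdgfrb, Serpine2, Gfap and Aqp4 as markers, Mag, Mog, Axin2, Sirt1, Id2 and Sox6 as list members, Nkx6-2 as a transduced factor and the genes overlapping a member were named after their values were seen. Gene positions are from GENCODE M21 on GRCm38 and promoters from RefSeq on GRCm38.p6. Alternatives tried were other cell filters, other totals and scaling, other minimums, a 4-fold rule, each value as 1 UMI, single barcode blocks and cells with a Sox10 UMI.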

Additional observations from a re-analysis of the deposited data

Results flagged for a closer look

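C1ql1, the progenitor-stage gene, was higher in the library labelled 3F than in that labelled 2F among fibroblast-derived cells and lower among pericyte-derived cells. Its log2 ratio was 2.25 for MEF-3F over MEF-2F, from 42 and 4 UMIs, and -1.27 for PC-3F over PC-2F, from 6 and 29 UMIs. Both ratios were called, in opposite directions, which is what drew attention to it. Neither call held in every alternative. The call in fibroblast-derived cells was lost with the second barcode blocks, at 1.56. The call in pericyte-derived cells was lost with each cell counted once, at -1.18, and among cells with a Sox10 UMI, at -0.88. Nkx6-2, the factor that separates these labels, had 1 or 2 UMIs in each of the 4 libraries. The difference between the ratios was not tested, since each population is 1 library.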

How the results depend on the processing

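No paired analysis was possible because each population is 1 library, and no replicate could be left out. Of 158 alternative counts of called members, 135 were within 1.5 times the reported count and 23 were not. With a minimum of 100 CPM the count was 3 for MEF-3F over MEF and over pOPC, 1 for MEF-3F over MEF-2F, pOPC over MEF and pOPC over PC, and 0 for PC-3F over PC-2F and MEF-3F over PC-3F, because fewer genes were measured. With a 4-fold rule it was 3 for MEF-3F over MEF and over pOPC, 2 for MEF-2F over PC-2F, and 1 for MEF-2F over MEF, MEF-2F over pOPC, MEF-3F over MEF-2F, PC-3F over PC-2F and MEF-3F over PC-3F. With no minimum but 1 UMI it was 4 for MEF-2F over MEF. With each value as 1 UMI it was 3 for PC-2F over PC and 0 for PC-3F over PC-2F. The first barcode block gave 3 for PC-2F over PC, and the second gave 1 for MEF-3F over MEF-2F. Cells with a Sox10 UMI gave 5 for PC-2F over pOPC, 1 for PC-3F over PC-2F and 2 for MEF-2F over PC-2F. With each value as 1 UMI, members were counted as cells over unchanged UMI totals. Their levels could therefore only fall or stay, and some fell under the 20 CPM minimum. The cause of the shifts with single blocks and with Sox10-detected cells was not tested. Of 455 alternative log2 ratios, 430 kept direction and call, 25 lost the call and 0 turned. Of 166 alternative levels 36 moved beyond their interval, 22 of them with each value as 1 UMI, and of 52 alternative shares of cells 41 moved, 23 without thinning and 18 at 2000 UMIs. Depth limits Neu4, Enpp6 and all members at 0 in MEF-2F.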
